A study of Mus musculus with 6 samples.

Results

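The genes described here are 56 of the 2744 genes held in a PRO-seq table of mouse bone marrow progenitors, all of them genes of innate immune sensing, interferon responses, NF-kB signalling and the cell death machinery tied to them. They were chosen by symbol alone, through family names such as Tlr, Nlr, Irf, Stat, Traf, Tnfaip, Trim, Casp and Bcl, and Irf8 and Nfkbia were set aside by that rule. By role they comprised 11 Toll-like and NOD-like receptor genes, 4 IRF and STAT factors, 1 subunit of the NF-kB kinase complex (Ikbkg), 15 adaptors, kinases and feedback regulators, 6 interferon-induced effectors, 6 TRIM genes, and 13 genes of cell death and survival. The symbols gather families, so a few members, such as the chromatin subunits Bcl7a and Bcl7c, do other work than the family name says. In PRO-seq, engaged RNA polymerases add biotin-labelled nucleotides to the RNA they are making, so that the captured RNA reports where polymerase is transcribing. Reads were counted by the authors in a head window of 330 bp, starting 30 bp before the transcript's first base, and in the body, which is the rest of the transcript with its introns.

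The cells were cKIT+ progenitors from female C57/BL6 mice that carry Mllt3 flox/flox and Rosa26Cre+, alleles shared by both groups. Those of the WT group (3 libraries) were transduced with wild-type MLLT3, and those of the DM group (3 libraries) with a double mutant, MLLT3 K63E K67E. MLLT3 (AF9) reads histone marks and works with transcription elongation factors. Cells of both groups were sorted and kept for 8 days in methylcellulose with 200 nM 4-hydroxytamoxifen, which induces deletion of the endogenous gene, and with cytokines that included IL-3, IL-6, IL-11, GM-CSF, SCF, Flt3L and EPO. The run-on lasted 3 min, and all 6 libraries are labelled as 1 batch. No group without added MLLT3 was analysed here. The labels do not say whether replicates came from separate animals or cultures, so the spread between libraries may be technical.

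As background, Toll-like receptors bind microbial lipids, proteins and nucleic acids at the cell surface or in endosomes, and NOD-like receptors sense microbial products and cell damage in the cytosol. Their adaptors, TRAF ligases and IRAK and RIP kinases lead to the IKK complex, which frees NF-kB, and to IRF factors, which induce interferons; interferons act through STAT factors. NF-kB induces its own brakes, among them A20 (Tnfaip3) and its partners. In bone marrow these genes are known for their use in monocytes, macrophages and neutrophils, and progenitors also express some of the receptors.

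Promoter sequences are given for 7 of the genes whose body or head reads are described below, because each holds a match to a motif recognised by a factor of these pathways or by PU.1, a myeloid factor. They run 5′ to 3′ on the gene's strand from 250 bases before to 50 after the RefSeq start (GRCm38.p6), with the match in capitals. Tlr8 (chrX:167264280-167264579, minus strand) shows a GAS match, the element bound by STAT dimers. Nlrp1a (chr11:71144655-71144954, minus strand), Nlrp1b (chr11:71230684-71230983, minus strand) and Bcl2a1b (chr9:89199023-89199322, plus strand) show a PU.1 match. Ifi207 (chr1:173741760-173742059, minus strand) and Trim30a (chr7:104465144-104465443, minus strand) show an ISRE core, the element of interferon-induced genes. Tnfaip3 (chr10:19015361-19015660, minus strand) shows a kB match, the element bound by NF-kB.
Tlr8: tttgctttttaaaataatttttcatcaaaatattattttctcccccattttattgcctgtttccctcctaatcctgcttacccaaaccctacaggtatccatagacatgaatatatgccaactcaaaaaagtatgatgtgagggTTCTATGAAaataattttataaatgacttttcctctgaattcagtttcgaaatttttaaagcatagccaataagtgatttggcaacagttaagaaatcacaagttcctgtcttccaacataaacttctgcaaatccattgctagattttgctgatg
Nlrp1a: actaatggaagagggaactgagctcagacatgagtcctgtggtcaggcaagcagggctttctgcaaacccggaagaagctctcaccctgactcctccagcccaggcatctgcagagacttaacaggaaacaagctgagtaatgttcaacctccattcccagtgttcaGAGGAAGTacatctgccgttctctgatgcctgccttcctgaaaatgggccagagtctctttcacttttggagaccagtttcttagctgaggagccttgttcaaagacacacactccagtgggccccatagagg
Nlrp1b: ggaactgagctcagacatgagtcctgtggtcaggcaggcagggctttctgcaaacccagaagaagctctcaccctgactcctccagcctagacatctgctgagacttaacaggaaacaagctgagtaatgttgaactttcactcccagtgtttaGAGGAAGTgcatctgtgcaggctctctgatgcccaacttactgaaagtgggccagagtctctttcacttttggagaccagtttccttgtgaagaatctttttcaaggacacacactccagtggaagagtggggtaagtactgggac
Bcl2a1b: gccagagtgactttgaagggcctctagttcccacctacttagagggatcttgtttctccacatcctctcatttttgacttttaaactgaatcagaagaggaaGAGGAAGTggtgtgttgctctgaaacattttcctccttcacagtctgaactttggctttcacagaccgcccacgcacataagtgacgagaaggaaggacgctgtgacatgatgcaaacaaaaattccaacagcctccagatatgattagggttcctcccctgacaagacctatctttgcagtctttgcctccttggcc
Ifi207: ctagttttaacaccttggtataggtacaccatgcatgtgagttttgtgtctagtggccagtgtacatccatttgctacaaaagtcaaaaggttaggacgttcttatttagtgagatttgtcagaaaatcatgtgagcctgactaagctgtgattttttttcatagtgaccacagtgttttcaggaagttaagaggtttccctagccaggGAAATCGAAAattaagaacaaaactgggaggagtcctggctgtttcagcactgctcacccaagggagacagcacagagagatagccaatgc
Trim30a: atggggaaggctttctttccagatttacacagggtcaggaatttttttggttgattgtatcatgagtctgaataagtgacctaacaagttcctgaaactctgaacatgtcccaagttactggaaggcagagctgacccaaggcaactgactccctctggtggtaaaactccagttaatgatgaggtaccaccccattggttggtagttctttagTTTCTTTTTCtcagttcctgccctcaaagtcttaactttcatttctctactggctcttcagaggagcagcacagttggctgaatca
Tnfaip3: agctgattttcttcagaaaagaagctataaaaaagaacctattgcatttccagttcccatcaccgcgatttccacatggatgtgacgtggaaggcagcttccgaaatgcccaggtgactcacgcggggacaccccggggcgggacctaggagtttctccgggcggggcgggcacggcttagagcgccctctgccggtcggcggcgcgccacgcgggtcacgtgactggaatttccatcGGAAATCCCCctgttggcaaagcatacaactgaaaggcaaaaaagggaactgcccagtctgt

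Of the 56 genes, 46 had a promoter entry in RefSeq and 43 had one within 500 bp of the deposited start, and these 43 were searched on both strands. The PU.1 motif GAGGAAGT was in 7 of the 43 (16.3%) and in 3.20% of all 32851 RefSeq promoter entries, which are not limited to genes held. Shares among the other genes held were not computed, so no excess over those genes is shown for any motif. The 7 were Bcl2a1b, Bcl2a1d, Nlrp1a, Nlrp1b, Tnip3, Traf3 and Traf7. The Bcl2a1 genes are copies of each other, as are the Nlrp1 genes, so their matches are not independent. The kB motif, GGG and TTTCC with any 2 bases between them, was in 4 (9.30%, against 1.63%), namely Bcl2l1, Casp4, Tnfaip3 and Traf3. The ISRE core, GAAA repeated after any 2 bases, was in Cflar, Ifi207, Ifih1 and Trim30a (9.30%, against 3.44%), and the GAS motif TTCNNNGAA, which reads the same on both strands, was in Nlrx1, Samhd1, Tlr8 and Tnip1 (9.30%, against 8.30%). In the printed sequences the matches begin at position -106 from the start for Tlr8, -83 for Nlrp1a, -96 for Nlrp1b, -148 for Bcl2a1b, -41 for Ifi207, -36 for Trim30a and -12 for Tnfaip3, and none overlaps another motif searched. A match is a description of these letters and not a measured binding site.

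Library totals ran from 15112853 to 22981603 reads. Every gene held had already passed an adjusted p of 0.05 in the authors' body comparison of these same libraries, the largest being 0.0498, so body differences below are a description of selected genes, whereas head reads were not used in that selection. The windows are not independent of each other, since over the 2579 genes tested in both the head and body log2 fold changes of these libraries correlated at r = 0.839 (across genes, which are not replicates), and the head to body ratio has the selected body reads as its denominator. Mllt3 itself, the gene to be deleted in both groups, had 1619.8, 1701 and 1908 normalised body reads with WT and 1182, 1271 and 1209 with DM, where normalised means divided by the authors' size factor of the library. These counts include any reads from the added sequence, the groups did not overlap, and DM was the lower (-0.52 on the log2 scale, SE 0.095; edgeR gave an adjusted p of 0.00188). The labelled marker Kit was read in every library, with 22708 to 30889 normalised body reads in WT and 13157 to 13459 in DM. WT replicate 2 stood apart in the head windows: head reads per 100 body reads over all genes held were 13.4, 23.7 and 14.9 with WT and 12.7, 14.5 and 13.8 with DM. All triplets of values follow the order of replicates 1 to 3, read numbers of single genes below are normalised unless given as counted, and a bare value in parentheses after them is the log2 fold change, DM over WT. The processing notes name a second genome build, dm3, without its role, and no reads of an added reference genome were analysed here, so higher and lower are relative to these size factors. In such bulk libraries, fewer cells of a type and less RNA per cell cannot be told apart.

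Body transcription of these genes was mostly higher in DM. In the authors' deposited table, 45 of the 56 were higher and 11 lower in DM (80.4% higher), where 57.0% of all 2744 genes were higher. All 55 genes with enough reads passed the edgeR threshold of an adjusted p of 0.05 in the body, 45 higher and 10 lower, but so did 100% of the 2721 genes tested (57.4% higher and 42.6% lower), because the table was selected on this comparison. The median body log2 fold change of the 55 was 0.65, against 0.37 over all genes tested. Body reads summed over the 56 genes were 2640, 2684 and 2904 per 1000000 library reads with WT and 3964, 3629 and 3883 with DM. Every DM library lay above every WT library, 1.39 times higher on average. The sum over all genes held did not overlap either, at 170361, 159130 and 184064 with WT and 198508, 189113 and 195801 with DM (1.14 times). By gene, the body values of the groups did not overlap in 55 of the 56, with DM higher in 44 (against 56.7% of all genes held) and lower in 11 (against 39.2%). The scaling of the libraries bears on the count: with TMM factors computed from the rows held, 35 were higher and 10 lower (77.8% of the calls higher), against 41.9% and 42.5% of all genes tested, 84.5% in either direction. The median over all genes tested shifted by -0.19 there, and 10 genes missed the threshold. Those 10 were Nlrp3, Stat3, Ikbkg, Traf3, Trim3, Bcl2l11, Casp4, Cflar, Ifih1 and Sp100, which kept positive log2 fold changes of 0.13 to 0.66.

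**Figure D1:**
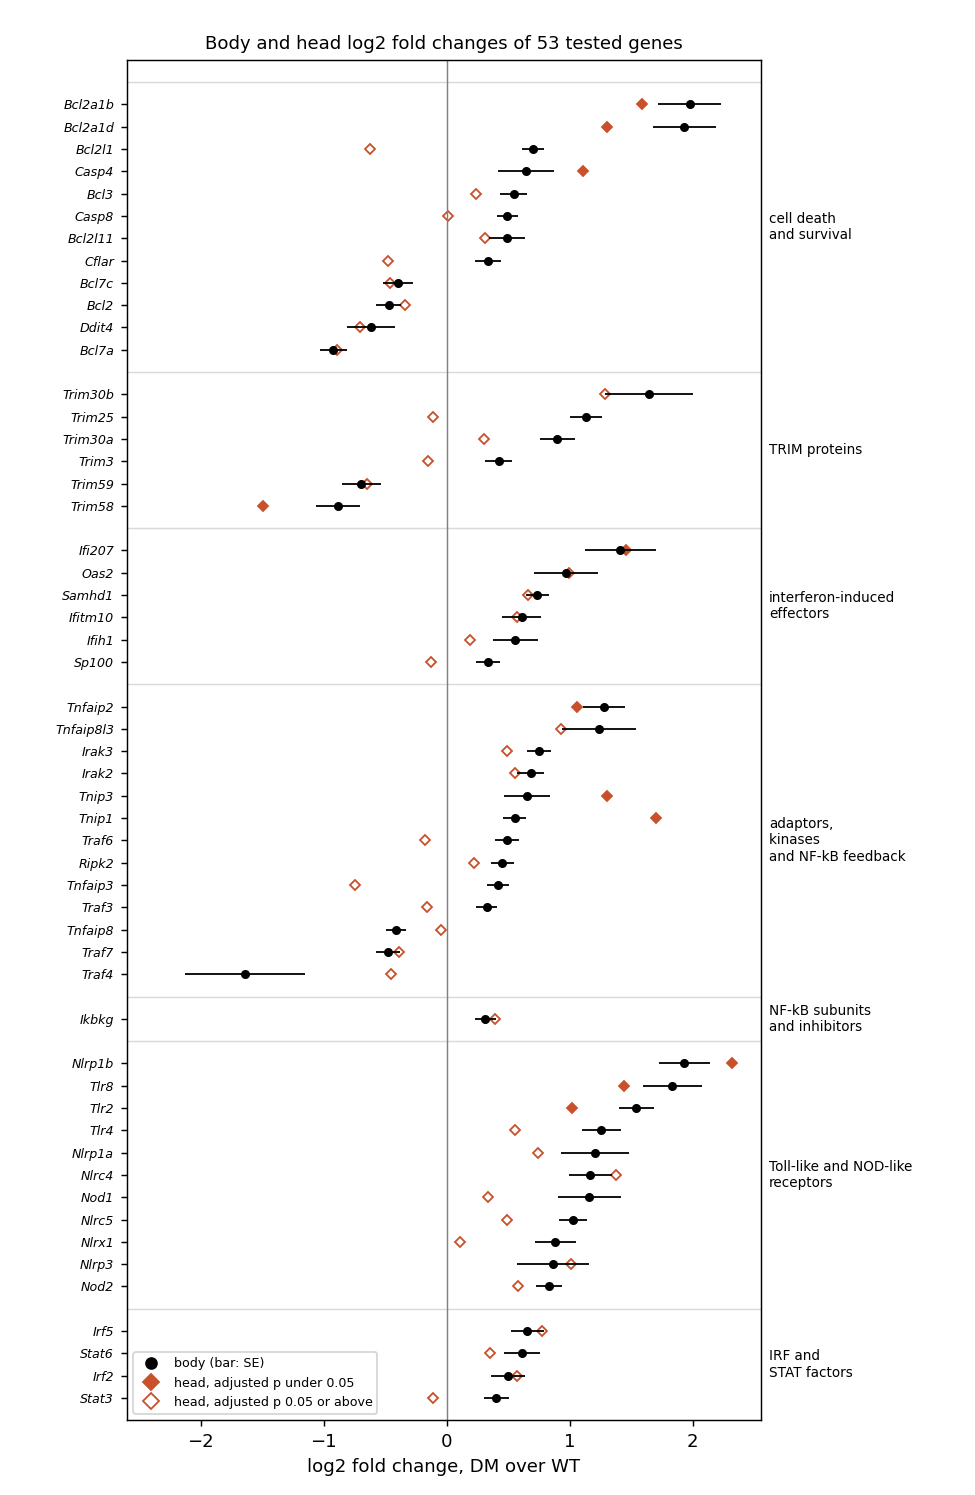
Log2 fold change (DM over WT) of 53 of the 55 tested genes, grouped by role, with the body value as a black dot with its standard error and the head value as a diamond, filled where the adjusted p is under 0.05. All 11 receptor genes lie right of 0 in body and head, and the filled diamonds are 10 on the right and Trim58 on the left.

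Head reads, which did not enter the selection, rose in DM for 10 of the 55 genes tested and fell for 1. That is 20.0% called, against 16.8% of the 2581 genes tested; 18.2% rose against 7.63%, and 1.82% fell against 9.18%. The median head log2 fold change was 0.35, whereas that of all genes tested was -0.15, and 36 of the 55 values (65.5%) were above 0, against 39.4%. These head values are not independent of the selected body changes, with which they correlated at r = 0.793 (across genes, which are not replicates). The 3 DM libraries lay above all 3 WT libraries in 22 of the 56 genes (39.3%, against 15.6% of all genes held) and below them in 6 (10.7%, against 22.6%). With TMM factors 21 rose and 5 fell (80.8% of the calls higher, against 90.9%), where 19.3% and 19.1% of all genes tested did, 38.4% together, and the median over all genes tested shifted by 0.12.

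The genes with raised heads were Nlrp1b, Tlr8 and Tlr2 among the receptors, Tnip1, Tnip3 and Tnfaip2 among the regulators, Ifi207 among the interferon-induced genes, and Bcl2a1b, Bcl2a1d and Casp4 among the death and survival genes; the head of Trim58 fell. Their calls rest on few libraries. Without DM replicate 1 none of the 55 genes passed the edgeR test, against 0.189% of all genes tested. The 10 rises were still between 1.00 and 2.20 on the log2 scale, with edgeR adjusted p-values from 0.0648 up. Of the 55, 18 then had an unadjusted edgeR p under 0.05, against 23 with all libraries. With all libraries, 888 of the 2581 genes tested did. Without DM replicate 2, 4 genes passed (against 6.12% of all genes tested), and without DM replicate 3, 2 passed (against 2.34%), Bcl2a1b and Nlrp1b. Without WT replicate 2, the library with the most head reads for its size, 28 passed (against 37.1% of all genes tested), 25 higher (against 23.6%) and 3 lower (against 13.5%), and all 11 were among them. Without WT replicate 1, 17 of the 55 passed, near the 29.6% of all genes tested, and 6 of the 17 were lower. The share of all genes called lower there is not given here. Without WT replicate 3, 8 passed (against 8.01%). Summed over the 56 genes, head reads per 1000000 library reads were 448, 788 and 549 with WT and 588, 600 and 611 with DM, and the groups overlapped.

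The Toll-like and NOD-like receptor genes had the highest median body change of the 7 roles. All 11 had higher body reads in DM, where 57.4% of all genes tested did, by a median log2 fold change of 1.17. Their summed body reads per 1000000 library reads were 214, 199 and 224 with WT and 521, 448 and 512 with DM, a 2.32-fold difference. Those of their heads were 35.4, 52.5 and 46.4 against 65.5, 65.6 and 68.1, a 1.48-fold difference. Over all genes held, DM over WT was 1.14 for summed body reads and 0.906 for summed head reads. All 11 head log2 fold changes were above 0, except that of Nlrx1 when WT replicate 1 was left out. Of the 11 heads 3 rose by the test, where 7.63% of all heads tested did, and in 8 genes the head values of DM lay above all of WT, where 15.6% of all genes held did. Summed levels of held monocyte and macrophage markers rose beside them and those of stem cell markers fell, as given at the end, and the part of these markers in the result was not tested.

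**Figure D2:**
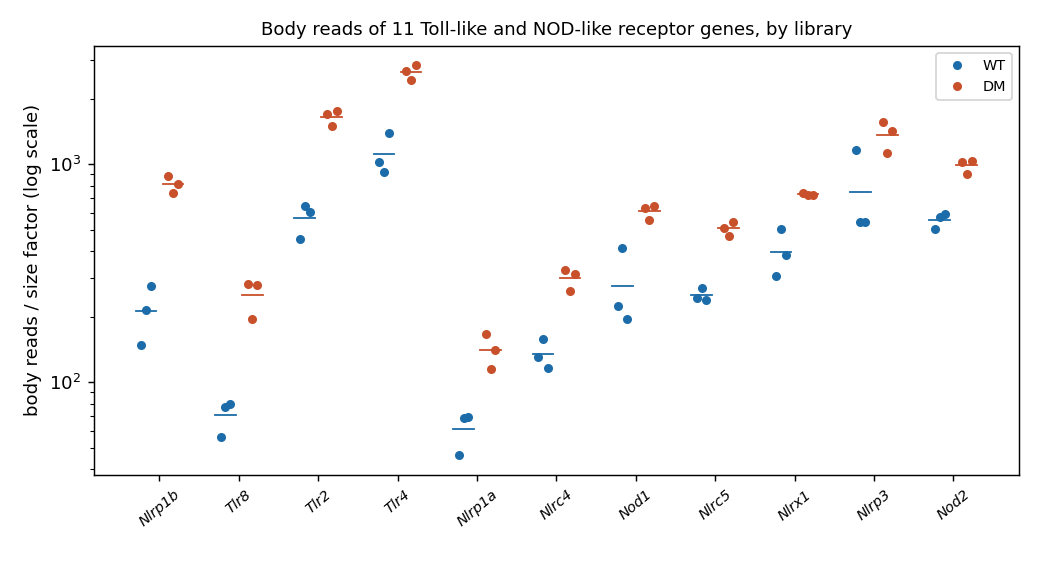
Body reads divided by the size factor, on a log axis, for the 11 receptor genes in each WT (blue) and DM (red) library, with group means as bars. In 10 genes the DM points lie above all WT points; in Nlrp3 WT replicate 1 at 1159 lies above the lowest DM library.

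Tlr2 (ENSMUSG00000027995.10; chromosome 3, 83836272 to 83841767, minus strand) encodes a receptor for bacterial lipoproteins. Its body held 456, 643 and 605 normalised reads with WT and 1699.7, 1494 and 1752 with DM, a log2 fold change of 1.54 (SE 0.142). Its head rose as well, from 85.7, 188 and 143 to 287, 252 and 301, by 1.02 (SE 0.321, edgeR adjusted p 0.0387). Every DM library exceeded every WT library in both windows. Per length it was the highest of the receptors, at 5.27 ± 0.785 body RPKM with WT and 15.6 ± 1.19 with DM (SD, n = 3 each).

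Tlr8 (ENSMUSG00000040522.5; chromosome X, 167242696 to 167264329, minus strand), an endosomal receptor for RNA and the gene of the GAS match above, had 56.0, 77.3 and 79.6 body reads with WT and 283, 195 and 279 with DM, a log2 fold change of 1.83 (SE 0.238). Head reads were few, 6.99, 8.75 and 10.5 with WT and 21.2, 20.0 and 30.8 with DM, and rose by 1.44 (SE 0.427, edgeR adjusted p 0.0311). The groups did not overlap in either window. Without a filter on low counts the head of Tlr8 had an adjusted p of 0.0540. Tlr4 (ENSMUSG00000039005.13; chromosome 4, 66827584 to 66930284, plus strand), the receptor for lipopolysaccharide, had 1024, 919.9 and 1392 body reads with WT and 2696, 2445 and 2849 with DM (1.26, SE 0.156). Its head values of 88.3, 104 and 91.0 and 111, 144 and 160.4 did not overlap, but the difference of 0.55 missed the threshold (edgeR adjusted p 0.179); it passed without WT replicate 2 (0.62, edgeR adjusted p 0.0480) and with TMM factors (0.62, adjusted p 0.0329).

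Nlrp1b and Nlrp1a are neighbouring copies of an inflammasome sensor gene, and both promoters above hold the PU.1 motif. Nlrp1b (ENSMUSG00000070390.12; chromosome 11, 71153102 to 71230733, minus strand) had 149, 214 and 276 body reads with WT and 888, 739.6 and 809 with DM, a log2 fold change of 1.93 (SE 0.208). Its head reads went from 3.50, 4.37 and 9.62 to 35.4, 29.9 and 25.7, a rise of 2.32 (SE 0.463, edgeR adjusted p 0.00959) and the largest head change among the 55 genes, which was 2.94 without WT replicate 3. Nlrp1a (ENSMUSG00000069830.10; chromosome 11, 71092236 to 71144704, minus strand) was lower, with 46.3, 68.5 and 69.1 body reads with WT and 166, 116 and 141 with DM (1.21, SE 0.273). The head of Nlrp1a, at 9.62, 21.9 and 21.9 and 29.2, 33.9 and 24.7, did not pass (edgeR adjusted p 0.208). How reads shared by the copies were assigned is not given in the sources used here, so the share of each copy is uncertain.

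Nlrc4 (ENSMUSG00000039193.9; chromosome 17, 74425438 to 74459142, minus strand), which forms an inflammasome with the NAIP proteins that bind bacterial flagellin, rose in the body from 130.2, 157 and 116 to 328, 262 and 314 (1.17, SE 0.175). Its head reads, 6.12, 4.37 and 13.1 with WT and 23.0, 24.9 and 16.4 with DM, just missed the threshold (1.38, edgeR adjusted p 0.0531). The call changed without WT replicate 3, where the difference was 1.97 (edgeR adjusted p 0.0407), and with TMM factors, library totals and the replicate block (adjusted p 0.0284, 0.0484 and 0.0260); over all alternatives adjusted p ran from 0.0260 to 0.198. Nlrp3 (ENSMUSG00000032691.14; chromosome 11, 59541568 to 59566956, plus strand), the inflammasome sensor of cell damage, was the receptor with overlapping body values, 1159, 545 and 545 with WT and 1561, 1133 and 1418 with DM, since WT replicate 1 was high. Its log2 fold change of 0.86 (SE 0.289) was no longer past the threshold without WT replicate 2 (0.69, edgeR adjusted p 0.0577), WT replicate 3 (0.67, adjusted p 0.0724), DM replicate 1 (0.76, adjusted p 0.0604) or DM replicate 3 (0.84, adjusted p 0.0506), or with TMM factors (0.66, adjusted p 0.0723). Without WT replicate 1 it was 1.33. The head of Nlrp3 had 115, 37.9 and 69.1 reads with WT and 156, 129.8 and 169 with DM (1.01, edgeR adjusted p 0.0557). It passed without WT replicate 1 (1.46, edgeR adjusted p 0.00191) or WT replicate 2 (0.71, adjusted p 0.0343), and with DESeq2 (adjusted p 0.0417) or the replicate block (adjusted p 0.00265).

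Nod1 and Nod2 encode sensors of peptidoglycan fragments. Nod1 (ENSMUSG00000038058.14; chromosome 6, 54923949 to 54972612, minus strand) rose in the body from 224, 413 and 196 to 634, 553 and 647 (1.16, SE 0.256), and Nod2 (ENSMUSG00000055994.15; chromosome 8, 88647315 to 88688474, plus strand) from 507, 576 and 591 to 1030.4, 905 and 1041 (0.83, SE 0.104). Their head values overlapped between the groups, with log2 fold changes of 0.34 and 0.58 (edgeR adjusted p 0.564 and 0.343). In Nod1 the highest head value of all was that of WT replicate 2, at 134. Without that library both heads passed, Nod1 at 0.96 (edgeR adjusted p 0.00807) and Nod2 at 1.14 (adjusted p 0.0157).

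Nlrc5 (ENSMUSG00000074151.13; chromosome 8, 94434391 to 94527272, plus strand), the transactivator of MHC class I genes, had 244, 269.7 and 238 body reads with WT and 511, 469 and 547 with DM (1.02, SE 0.116). Nlrx1 (ENSMUSG00000032109.15; chromosome 9, 44252717 to 44268187, minus strand), a mitochondrial family member, had 309, 503 and 382 and 739, 724 and 724 (0.88, SE 0.165). Neither head passed, at 0.49 for Nlrc5 and 0.11 for Nlrx1 (edgeR adjusted p 0.277 and 0.835). The Nlrx1 head, with 289, 525 and 410.3 reads with WT and 435, 457 and 424 with DM, showed the smallest head difference among the receptors beside a body rise of 1.84 times, and without WT replicate 1 it was -0.09.

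**Figure D3:**
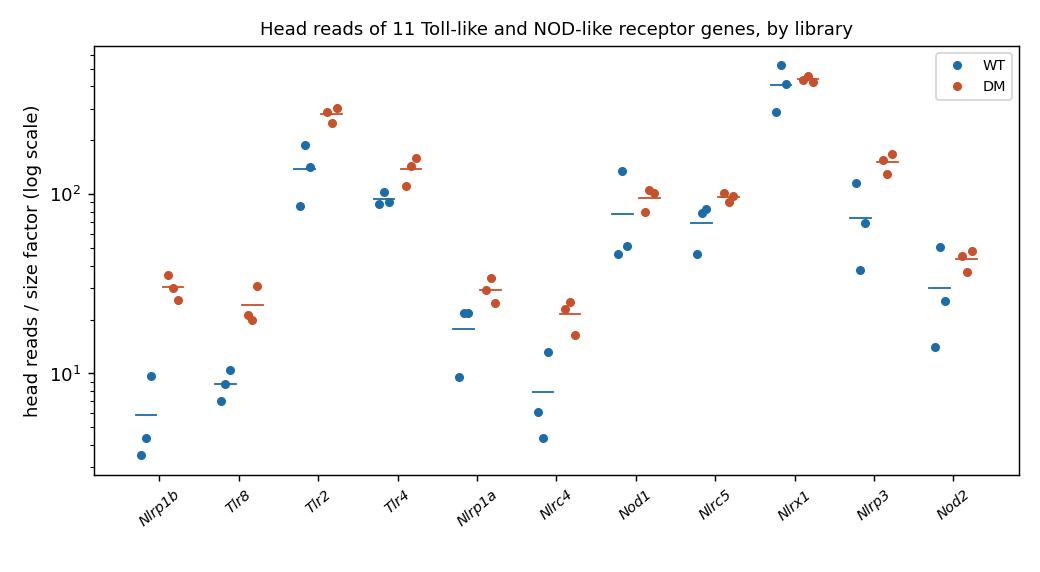
Head reads divided by the size factor, on a log axis, for the same 11 genes in each WT (blue) and DM (red) library, with group means as bars. Nlrp1b, Tlr8 and Tlr2 passed the test; WT replicate 2 gives the highest WT point in 5 genes (Tlr2, Tlr4, Nod1, Nlrx1 and Nod2), such as 134 in Nod1.

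All 4 IRF and STAT genes rose in the body, where 57.4% of all genes tested did, with a median log2 fold change of 0.56. Irf5 (ENSMUSG00000029771.12; chromosome 6, 29526625 to 29541871, plus strand), which acts downstream of Toll-like receptors, had 515, 658 and 736 body reads with WT and 951, 1013 and 1038 with DM, a log2 fold change of 0.65 (SE 0.135). Its head values of 91.8, 153 and 125 and 199, 206 and 224 did not overlap and gave 0.77 (edgeR adjusted p 0.0791). Irf2 (ENSMUSG00000031627.9; chromosome 8, 46740266 to 46847458, plus strand), known as an antagonist of Irf1, had 2412, 3451 and 3222 and 4223, 4016 and 4609 (0.50, SE 0.139; 0.32 with TMM factors), with WT replicate 1 the lowest. Stat6 (ENSMUSG00000002147.18; chromosome 10, 127642986 to 127660957, plus strand), the transducer of IL-4 signals, rose from 911, 1372 and 1227 to 1828, 1665 and 1860.5 (0.61, SE 0.149). Stat3 (ENSMUSG00000004040.16; chromosome 11, 100885098 to 100939404, minus strand), the transducer of IL-6 family signals, rose from 1316, 1172 and 1232 to 1693, 1472 and 1755 (0.40, SE 0.101), and at 0.21 missed the threshold with TMM factors (edgeR adjusted p 0.0704). None of the 4 heads passed, with adjusted p-values from 0.0791 to 0.836, and that of Stat3 was slightly below 0 at -0.11 and above it, at 0.15, without WT replicate 2. Without that library the heads of Irf5 (0.95, edgeR adjusted p 0.00351) and Irf2 (0.93, adjusted p 0.0204) passed, as they did with TMM factors (adjusted p 0.00195 and 0.0375); Irf5 also passed with library totals (adjusted p 0.0394) and the replicate block (adjusted p 0.0342). Transcripts of Irf5, Stat3 and Stat6 overlap the neighbouring genes Tnpo3, Stat5a and Nab2, and whether counting used strand is not given in the sources used here. Of the genes described below, Bcl2a1d, Bcl2l11, Ikbkg, Tnfaip8, Traf7 and Trim30b also overlap other genes and carry the same limit.

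Ikbkg (ENSMUSG00000004221.16; chromosome X, 74393290 to 74453854, plus strand) encodes NEMO, the regulatory subunit of the IKK complex. Of the Nfkb, Rel and Ikbk symbols in the rule, it was the only one in the table besides Nfkbia, which was set aside. The body reads of Ikbkg were 1075, 1007 and 1139 with WT and 1289.8, 1378 and 1341 with DM, without overlap, a log2 fold change of 0.31 (SE 0.0880). With TMM factors it was 0.13 and missed the threshold (edgeR adjusted p 0.198). Its head held 20.1, 23.3 and 42.9 and 25.7, 44.9 and 44.2 reads (0.39, edgeR adjusted p 0.509). The gene overlaps G6pdx on the other strand, which is also in the table.

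Among the 15 adaptors, kinases and feedback regulators, 11 rose in the body and 3 fell, and Ripk4 had too few reads to test. Over all genes tested, 57.4% were higher in the body and 42.6% lower. The largest rise was that of Tnfaip2 (ENSMUSG00000021281.15; chromosome 12, 111442658 to 111455018, plus strand), a gene induced by TNF, with 2106, 3349 and 2418 body reads with WT and 6880.1, 5698 and 6509 with DM (1.28, SE 0.171). Its head rose from 274, 608 and 370.1 to 839, 835 and 930.3, by 1.06 (SE 0.316, edgeR adjusted p 0.0316). At 26.0 ± 2.41 body RPKM with DM, against 10.4 ± 1.99 in WT (SD, n = 3 each), it was the most transcribed of the 15 per length. Tnfaip8l3 (ENSMUSG00000074345.4; chromosome 9, 54023405 to 54068388, minus strand), of a family of lipid transfer proteins, rose in the body from 27.1, 42.3 and 39.4 to 85.0, 73.9 and 96.6 (1.24, SE 0.300). Its head held at most 13.1 reads in any library and did not pass (0.93, edgeR adjusted p 0.27). Without WT replicate 2 it was 1.69 and passed (edgeR adjusted p 0.0412).

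Traf4 (ENSMUSG00000017386.10; chromosome 11, 78158499 to 78165589, minus strand), a TRAF adaptor better known in epithelia, had the largest fall of all 55 genes in the body. It held 228, 156 and 53.4 reads with WT and 46.9, 52.9 and 40.1 with DM (-1.64, SE 0.488). The WT libraries were far apart among themselves, and WT replicate 3 lay just above the highest DM library. The head of Traf4, at 209, 405 and 208 and 195, 229.6 and 174, did not pass (-0.45, edgeR adjusted p 0.353). Ripk4, a kinase of epithelial differentiation, showed a like spread: its body held 85, 9 and 8 reads as counted in WT and 7, 6 and 2 in DM, so that WT replicate 1 held most of them. WT replicate 1 was also the highest library for Notch3, a stromal marker, at 404 normalised body reads against 23.9 to 109 in the other libraries, and its part in these values was not tested.

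In the A20 group of NF-kB brakes all 3 genes held had higher bodies, as did 57.4% of all genes tested. These 3 were picked after their values were seen. Tnfaip3, which encodes A20 itself, rose in the body from 1578, 1477 and 1515 to 2058, 1870.5 and 2176 (0.42, SE 0.0910). Its head, next to the kB match printed above, had 700.2, 1294 and 800.5 reads with WT and 571, 597 and 498 with DM, so that every DM library was below every WT library, but the difference of -0.74 missed the threshold (edgeR adjusted p 0.0931). The A20-binding genes Tnip1 and Tnip3 went up in both windows. Tnip1 rose in the body from 2251, 2558 and 2628 to 3695, 3584 and 3614 (0.55) and in the head from 9.62, 11.7 and 17.5 to 32.8, 42.9 and 52.4 (1.70, SE 0.388, edgeR adjusted p 0.0126). Tnip3 rose by 0.65 in the body, and its head from 14.0, 13.1 and 13.1 to 38.1, 30.9 and 30.8 (1.30, SE 0.367, edgeR adjusted p 0.0275).

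Other genes of this role went in both directions in the body. Irak2, a kinase of the Toll-like receptor pathway, had 1798, 2127 and 2299.9 body reads with WT and 3398, 3107 and 3482 with DM (0.68, SE 0.111), and Irak3, which restrains the same pathway, 852, 707 and 724 and 1303, 1246 and 1295 (0.75, SE 0.100). Ripk2, the kinase downstream of Nod1 and Nod2, rose by 0.45, the ligase Traf6 by 0.49 and Traf3 by 0.33. Tnfaip8 and Traf7 fell in the body, by 0.41 and 0.48 on the log2 scale. No head of these 7 genes passed.

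All 6 interferon-induced effector genes rose in the body, by log2 fold changes of 0.34 to 1.41, where 57.4% of all genes tested rose. Ifi207 (ENSMUSG00000073490.11; chromosome 1, 173723427 to 173741747, minus strand), of the HIN-200 family of DNA-binding proteins and with the ISRE core shown above, had 53.3, 59.8 and 106 body reads with WT and 189, 201 and 197 with DM (1.41, SE 0.285). Its head rose as well, from 11.4, 5.83 and 19.2 to 28.3, 35.9 and 41.1 (1.46, SE 0.421, edgeR adjusted p 0.0293), without overlap in either window. Its family has near copies in tandem, so its reads may be shared with them. Oas2 (ENSMUSG00000032690.16; chromosome 5, 120730333 to 120749853, minus strand), which makes the 2-5A messenger upon binding double-stranded RNA, rose in the body from 63.8, 96.2 and 82.2 to 153, 128 and 192 (0.97, SE 0.258), and without DM replicate 3 its rise of 0.80 missed the threshold (edgeR adjusted p 0.0512). Samhd1 (ENSMUSG00000027639.16; chromosome 2, 157097533 to 157135222, minus strand), a dNTP hydrolase that restricts retroviruses, rose from 1130.3, 1149 and 1084 to 1982, 1679 and 1941 (0.74, SE 0.0960). The heads of Oas2 and Samhd1 were 0.99 and 0.66 higher without overlap between the groups, yet did not pass (edgeR adjusted p 0.0839 and 0.106). Both passed without WT replicate 2 (1.43 and 0.74, edgeR adjusted p 0.00342 and 0.0107) and with TMM factors (adjusted p 0.00961 and 0.00791), and Oas2 with the replicate block (adjusted p 0.0267). Ifitm10, which is in this role by its symbol alone, rose in the body by 0.61. The RNA sensor gene Ifih1 and the nuclear body gene Sp100 rose there by 0.56 and 0.34.

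Of the 6 TRIM genes, which encode ubiquitin ligases, 4 rose in the body and 2 fell, where 57.4% and 42.6% of all genes tested did. Trim25 (ENSMUSG00000000275.16; chromosome 11, 88999376 to 89020293, plus strand), known for its role in RIG-I signalling, rose from 1035, 1354 and 1325 to 2865, 2388 and 2875 (1.13, SE 0.132). Its head did not follow, at 196, 443 and 276 with WT and 282, 272 and 288 with DM (-0.11, edgeR adjusted p 0.836), and this small difference was above 0 with TMM factors (0.05) and without WT replicate 2 (0.25). Trim30a (ENSMUSG00000030921.17; chromosome 7, 104409025 to 104465193, minus strand), which restrains Toll-like receptor signalling and carries an ISRE core, rose in the body from 195, 255 and 252 to 400.1, 442 and 465 (0.90, SE 0.143). Its tandem copy Trim30b rose by 1.65 from at most 21.0 reads in WT, and reads may be shared between the copies.

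Trim58 (ENSMUSG00000037124.6; chromosome 11, 58640465 to 58652404, plus strand) is an erythroid gene, and it fell in both windows. Body reads were 171, 197 and 202 with WT and 102, 105 and 102 with DM (-0.89, SE 0.180), and head reads 65.6, 138 and 127 and 40.7, 43.9 and 31.9 (-1.49, SE 0.338, edgeR adjusted p 0.0126). The erythroid and megakaryocyte markers held (Gata1, Slc4a1, Car2 and Itga2b) all fell in the body too, as did 42.6% of all genes tested. Their summed normalised reads went from 3953 to 4637 in WT down to 2173 to 2514 in DM. The part of these markers in the fall of Trim58 was not tested. Trim59 fell in the body by 0.69 on the log2 scale, and Trim3 rose by 0.42.

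The 13 genes of cell death and survival were mixed, 8 higher and 5 lower in the body, near the shares of all genes tested (57.4% and 42.6%). The survival factor A1 is encoded by several near-identical copies, and the copies Bcl2a1b and Bcl2a1d rose 3.93-fold and 3.82-fold in the body. Bcl2a1b (ENSMUSG00000089929.1; chromosome 9, 89199209 to 89207827, plus strand), with the PU.1 match above, went from 90.0, 53.9 and 114 to 388, 304 and 336 body reads (1.97, SE 0.257) and from 22.7, 26.2 and 19.2 to 63.7, 75.9 and 63.7 head reads (1.58, SE 0.322, edgeR adjusted p 0.00995). Bcl2a1d (ENSMUSG00000099974.1; chromosome 9, 88723285 to 88731914, minus strand) went from 48.1, 30.6 and 45.5 to 154, 157 and 169 in the body (1.93, SE 0.258) and from 11.4, 11.7 and 11.4 to 24.8, 26.9 and 33.9 in the head (1.31, SE 0.386, edgeR adjusted p 0.0311). The groups did not overlap in any of these, and how reads that fit several copies were assigned is not given in the sources used here.

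Other survival genes went in different directions in the body. Bcl2, the founding survival gene, fell from 2203, 1994 and 2519.5 to 1613, 1622 and 1612 (-0.47, SE 0.103), while Bcl2l1, which encodes Bcl-xL, rose from 2487, 2675 and 2841 to 4397, 4152 and 4456 (0.70, SE 0.0880). Bcl2l11, which encodes the killer protein Bim, rose by 0.49, and the NF-kB cofactor Bcl3 by 0.54. Bcl7a (ENSMUSG00000029438.9; chromosome 5, 123344448 to 123374992, plus strand), a subunit of the SWI/SNF remodeller and not a Bcl2 relative, had the largest fall in this role, from 630.3, 687 and 623 to 314, 377 and 332 (-0.92, SE 0.109). Its head fell short of the threshold at -0.89 (edgeR adjusted p 0.0706). It passed without WT replicate 1 (-1.12, edgeR adjusted p 0.00872) or WT replicate 2 (-0.82, adjusted p 0.0385), with TMM factors (adjusted p 0.0309) and with the replicate block (adjusted p 0.0392).

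Among the caspases, Casp4, which detects cytosolic lipopolysaccharide, rose in the head from 39.3, 14.6 and 35.9 to 63.7, 63.9 and 72.0 (1.11, SE 0.354, edgeR adjusted p 0.0414) and by 0.65 in the body. Casp8, an initiator caspase gene, rose by 0.49 and its inhibitor gene Cflar by 0.34 in the body. Ddit4, a stress-induced inhibitor of mTORC1, fell from 1789, 3298 and 2457 to 1613, 1608 and 1703 (-0.61, SE 0.195). It was the most transcribed of the 56 genes per length, at 64.7 ± 16.3 body RPKM with WT and 43.3 ± 0.992 with DM (SD, n = 3 each).

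**Figure D4:**
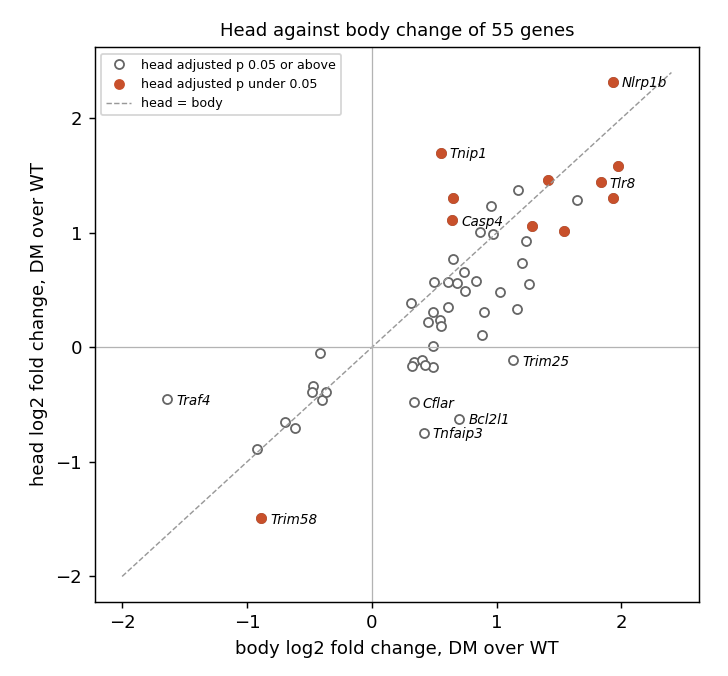
Head against body log2 fold change (DM over WT) of the 55 tested genes, with filled points where the head's adjusted p is under 0.05 and the dashed line where both are equal. Tnfaip3, Bcl2l1, Cflar and Trim25 lie at lower right, with a higher body and a head value below 0; no gene lies at upper left.

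Head and body were then compared directly. In 9 of the 55 genes (16.4%, against 20.7% of the genes tested in both windows) the head value was below 0 while the body was higher: Bcl2l1, Cflar, Sp100, Stat3, Tnfaip3, Traf3, Traf6, Trim25 and Trim3. With TMM factors the heads of Traf3, Traf6, Trim25 and Trim3 turned above 0. Head reads per 100 body reads, summed over the 56 genes, were 17.0, 29.4 and 18.9 with WT and 14.8, 16.5 and 15.7 with DM, with means of 21.7 ± 6.66 and 15.7 ± 0.85 (SD, n = 3 each). Over all genes held the means were 17.4 ± 5.55 and 13.7 ± 0.904. WT replicate 2 carried most of both gaps: the difference, DM minus WT, was -6.04 for the 56 genes and -3.67 for all genes held, and without that library -2.23 and -0.49. By gene, the DM ratio lay below all WT values in 13 of the 56 (23.2%, against 21.2%) and above them in 2, Traf4 and Tnip1 (3.57%, against 4.01%).

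No ratio passed the edgeR interaction test, 0 of 55 against 0.0775% of the 2579 genes tested. Of the 55, 9 had an unadjusted p under 0.05, 7 of them lower in DM. Over all 2579 genes tested 395 did, 349 of them lower in DM. DESeq2 called 3, all lower in DM (Bcl2l1, Tnfaip3 and Trim25; 1.24% of all genes tested were called, 1.09% lower and 0.155% higher), and edgeR without WT replicate 2 called 4, these 3 and Nlrx1 (against 3.14% of all genes tested). Without WT replicate 1, Trim25 alone passed (against 0.729%). These genes were named after their values were seen. In Bcl2l1 head reads per 100 body reads were 4.50, 5.07 and 3.79 with WT and 2.01, 1.80 and 1.48 with DM, a log2 change of the ratio of -1.33 (SE 0.266, edgeR adjusted p 0.0962). In Tnfaip3 they were 44.4, 87.7 and 52.8 and 27.7, 31.9 and 22.9 (-1.11, SE 0.296, edgeR adjusted p 0.182). In Trim25 they were 18.9, 32.7 and 20.9 and 9.86, 11.4 and 10.0 (-1.17, SE 0.276, edgeR adjusted p 0.143). The groups did not overlap in any of the 3 genes, and WT replicate 2 was the highest library in each. Tnip1 went the other way, with 0.427, 0.456 and 0.666 with WT and 0.886, 1.20 and 1.45 with DM (1.14, SE 0.343, edgeR adjusted p 0.21), on few head reads.

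**Figure D5:**
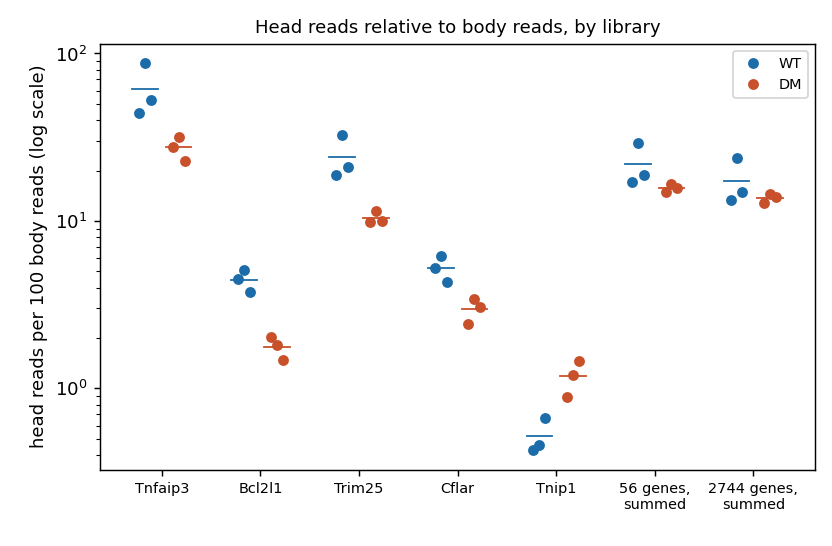
Head reads per 100 body reads, on a log axis, in each WT (blue) and DM (red) library for 5 genes and for the sums over the 56 genes and over all 2744, with group means as bars. DM points lie below WT points in Tnfaip3, Bcl2l1, Trim25 and Cflar and in the sum over the 56 genes, and above them in Tnip1; WT replicate 2 is the high point of both sums.

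Other genes of these pathways, from a list of 57 that the symbol rule does not take, gave a like picture: 24 were in the table, of which 22 were higher and 2 lower in the body, with a median log2 fold change of 0.90, where 57.4% of all genes tested were higher and 42.6% lower. Receptor genes stood among the higher ones, such as Tnfrsf1b at 1.49, Clec7a at 1.53 and Clec4e at 1.58, receptors for TNF and for fungal glycans and damage signals. Interferon receptor genes rose by less, Ifnar1 by 0.53, Ifnar2 by 0.50 and Ifngr2 by 0.64. The Toll-like receptor partners Cd14 and Ticam2 rose by 1.34 and 1.01. The inhibitor gene Nfkbia rose by 1.28 and the myeloid factor gene Irf8 by 1.34. The 2 that fell were Il6, by 0.60 on the log2 scale, and Socs1, the feedback inhibitor of cytokine receptors, by 0.53. In the head 6 of the 24 rose by the edgeR test (Zbp1, Ticam2, Cd14, Il1a, Clec7a and Clec4e), where 7.63% of all heads tested did, and the median log2 fold change was 0.50. The lowest head value, that of Il6 at -0.82, just missed the threshold (edgeR adjusted p 0.0501).

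Markers of other cell types that these cultures could hold moved beside these genes. Over all genes tested, 57.4% were higher in the body and 42.6% lower. Of 10 monocyte and macrophage markers listed, 7 were held and all 7 were higher in the body, their summed normalised reads being 4481 to 6022 in WT and 12254 to 13822 in DM. The 4 neutrophil markers held of 10 listed were also higher, at 1290.2 to 1748 in WT and 3823 to 4499 in DM, as were the 2 dendritic markers held of 8, at 563 to 639 against 944 to 1123. Of the 5 stem and progenitor markers held of 8, 4 were lower and Procr higher, with sums of 55342 to 64873 in WT and 31406 to 32084 in DM. All 5 mast cell and basophil markers held of 7 were lower, as were the 4 erythroid and megakaryocyte markers held of 11. No held marker was at 0 in the body of any library, and of the 6 B cell markers and 8 T and NK cell markers listed, 0 were held, so that these cell types have no values here. These lists come from the same selected table, and their part in the differences above was not tested.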

How the data were processed

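PRO-seq libraries of 3 WT and 3 DM samples were analysed from the table the authors deposited, which holds 3022 transcript rows. Per the file headers, the authors deposited raw read counts per library for head and body windows, library totals, RPKM values, and for the body comparison a mean signal, a log2 fold change with its standard error, p-values and adjusted p-values. The submitters' processing notes list cutadapt, Trimmomatic, Bowtie 1.1.2, MACS2 and bedtools 2.28, and the builds mm10 and dm3, without their roles; no spike-in reads were analysed here, so differences are relative to the authors' size factors. Annotation, strand use and treatment of multiply mapped reads are not given in the sources used here. Coordinates are given as deposited.

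Per gene the transcript row with most body reads on average was kept, and 278 rows were left out. The authors' size factors were recovered from the deposited mean signal by a linear solve and scaled all main fits, because TMM factors computed from rows selected by this comparison are not those of all transcripts. Body and head counts of all genes held were filtered by filterByExpr, with a minimum count of 10 and a minimum total of 15, and entered the quasi-likelihood test of edgeR 4.0.16 under R 4.3.3, which loads limma 3.58.1. The ratio was tested by the interaction of window and group with library as a block, and Benjamini-Hochberg adjustment ran over all genes tested (threshold 0.05). The scripts were tested on simulated counts. Standard errors are the log2 fold change divided by the square root of F. With 3 libraries a group, p-values set the group difference against the spread between these libraries. No p is given for sums over the genes. Library totals, TMM, no filter, the longest transcript row, DESeq2 1.42.0, a minimum of 50 head reads for the ratio, the replicate number as a block and leaving out each library were alternatives.

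The genes, roles and lists were chosen with earlier results of these data known. Genes named by rule were all receptors, IRF and STAT factors and NF-kB subunits, the 3 largest body changes in every other role among genes with a mean of at least 50 body reads, and any gene passing the ratio test; others were named after their values were seen. Promoters come from RefSeq (GRCm38.p6); of 2148 genes held with an entry, 715 had its start at exactly the deposited base. Of the 56 genes, 2 are counted in all totals but not reported individually here.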

Additional observations from a re-analysis of the deposited data

How the results depend on the processing

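The body counts of 45 higher and 10 lower genes stayed within 1.5 times under every alternative run. Every gene held was selected on this same comparison, so the stability of body calls given here is no separate support. The head calls moved most. They were 26 of 55 (21 higher, 5 lower) with TMM factors, against 38.4% of all genes tested. Leaving out libraries gave 0 to 28 calls, 0 to 25 higher and 0 to 6 lower. Over all genes tested it gave 0.189% to 37.1% in either direction. For the head to body ratio, DESeq2 gave 3 calls, all 3 lower (against 1.24% of all genes tested), and leaving out libraries 0 to 4, all lower. Same-numbered replicates are not shown to be paired: their deviations from the group means correlated at -0.04, -0.18 and 0.47 in the body and 0.01, -0.06 and 0.12 in the head. With the replicate block, head calls were 18 (16 higher, 2 lower) and ratio calls 3, all 3 lower (Bcl2l1, Tnfaip3 and Trim25). The share of all genes called with the block is not given here. Whether the added calls are particular to these genes was not tested. The difference in summed head reads per 1000000, 5.03 as reported, was -12.7 with size factors and ranged from -68.2 to 101.4 when libraries were left out. Among single genes, the head of Trim25 was 0.049 with TMM factors and -0.351 to 0.250 without a library, that of Stat3 -0.333 to 0.148, and that of Nlrx1 -0.091 to 0.326. Of 336 other fits of the 28 named genes in the body, 5 with a library left out and 3 with another setting missed the threshold. The causes were not tested. Head windows of several receptors held under 30 reads in a library, which limits the precision of their changes.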
